A study of Homo sapiens with 38 samples.

Results

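RNA of 10 genes of the kinetochore and the mitotic spindle was followed in RKO, a human colorectal cancer cell line, and 7 of the 10 had at least 1.5-fold higher levels after 30 days with the LSD1 inhibitor NCD38 than with the solvent DMSO, where 4.00% of expressed genes were. The genes were DLGAP5, NDC80, NUF2, SPC25, CENPA, CENPE, CENPF, HMMR, NUSAP1 and CKAP5. They were taken by name, as DLGAP5, an example gene of the study, and its functional neighbours, with results of these data known, and each matched 1 of the 25594 entries of the deposited expression table. RNA was sequenced from cells given 0.1% DMSO alone, NCD38, or NCD38 joined to a pyrrole-imidazole polyamide, collected on day 30 or on day 4, with 1 library in each of the 8 conditions. The polyamides are short chains that bind DNA in its minor groove, and the conjugates are named NCD38-β2P4 (P4_NCD38 in the labels) and NCD38-β2PIPP (PIPP_NCD38 in the library titles, PPIP_NCD38 in a treatment label). They differ in that a pyrrole of the first is an imidazole in the second. The labels give 2 µM for each inhibitor on both days, with medium renewed every 5 days, whereas the paper's methods give a millimolar unit for day 4. Because no condition had a second library, a difference between a pair of libraries could be judged only against counting error, and the sole replicate check was the agreement between treatments or between days.

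The kinetochore is the protein assembly on the centromere to which spindle microtubules attach in mitosis. CENPA, the histone H3 variant of centromeric nucleosomes, marks the site. NDC80, NUF2 and SPC25, together with SPC24, form the Ndc80 complex, the main coupler between kinetochore and microtubule. CENPE, a kinesin motor, and CENPF, a large coiled-coil protein, sit in the outermost layer, the fibrous corona. DLGAP5 (also called HURP) and NUSAP1 bind and stabilise spindle microtubules, HMMR is a spindle-pole and hyaluronan-binding protein, and CKAP5 (ch-TOG) is a microtubule polymerase. Transcripts of most of these genes accumulate in G2 and mitosis, where promoter elements called CHR and CCAAT boxes and the E2F4-containing DREAM complex, a repressor in resting cells, are known to act.

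The promoters are shown because the study placed DLGAP5 among genes linked to E2F4 motifs and because the conjugates were designed for particular DNA letters. The paper places the E2F4 motif of DLGAP5 at enhancers that gained the histone mark H3K27ac. A search of promoters covers another region and is no check of that link. RefSeq promoters of 300 bases, from 250 before to 50 after the start of transcription on GRCh38.p14, were found for 10 of 10 genes. The CHR core TTTGAA, on either strand, was present in 9 of them. It was present in 15.4% of 27305 promoters in the same table and in 8.77% of 7267 promoters of genes expressed here. In the lists of other genes used below, it was in 3 of 11 promoters of the inner kinetochore and 6 of 17 of the outer. Among other spindle genes it was in 9 of 23, and among S-phase genes in 1 of 28. CENPE was the gene of the 10 without a match. DLGAP5 had 3 matches, starting at positions -138, -109 and 4 relative to the first transcribed base. CCAAT, on either strand, was present in 7 of 10 promoters against 35.7% of all and 37.3% of those of expressed genes. The letters GGCGGGAA, an E2F-type site, occurred in SPC25 and CENPA, against 3.18% of all promoters and 5.57% of those of expressed genes. In the same lists, in the same order, GGCGGGAA was in 1 of 11, 2 of 17, 5 of 23 and 11 of 28 promoters. TTTGGCGC was in NUSAP1 alone, against 0.659% of all and 1.21% of expressed genes. TTTCGCGC was in none of the 10, in 0.546% of all and in 1.05% of expressed genes. An unbroken run of 6 A or T, the kind of site that NCD38-β2P4 was designed for, was present in 7 of 10. It was in 62.0% of all promoters and 45.5% of those of expressed genes. CG between pairs of A or T, the kind of site of NCD38-β2PIPP, was present in 3 of 10, in 16.1% of all and in 17.8% of expressed genes. The search covered both strands, and a match is a description of letters. The windows below run from 120 bases before to 30 after the start, with TTTGAA or its reverse complement in capitals. They are those of DLGAP5, of a pair of Ndc80 subunits that behaved differently, of CENPA and CKAP5, whose response differed between the days, and of CENPE, which lacked the core. In order, they lie at chr14:55191556-55191705 (minus), chr1:163321834-163321983 (plus), chr2:168890401-168890550 (minus), chr2:26785936-26786085 (plus), chr11:46846251-46846400 (minus) and chr4:103198314-103198463 (minus).
DLGAP5: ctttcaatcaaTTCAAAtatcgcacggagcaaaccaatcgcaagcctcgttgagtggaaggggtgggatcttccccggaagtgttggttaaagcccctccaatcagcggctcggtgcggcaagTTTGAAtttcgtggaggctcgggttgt
NUF2: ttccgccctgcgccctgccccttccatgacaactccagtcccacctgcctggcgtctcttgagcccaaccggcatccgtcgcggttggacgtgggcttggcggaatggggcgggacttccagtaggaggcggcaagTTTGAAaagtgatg
SPC25: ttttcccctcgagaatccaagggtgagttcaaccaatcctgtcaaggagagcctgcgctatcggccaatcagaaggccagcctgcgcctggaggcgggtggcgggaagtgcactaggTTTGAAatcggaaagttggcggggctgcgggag
CENPA: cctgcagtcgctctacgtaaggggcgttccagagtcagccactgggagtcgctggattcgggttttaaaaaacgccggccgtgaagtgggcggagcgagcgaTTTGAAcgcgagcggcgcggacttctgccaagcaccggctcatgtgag
CKAP5: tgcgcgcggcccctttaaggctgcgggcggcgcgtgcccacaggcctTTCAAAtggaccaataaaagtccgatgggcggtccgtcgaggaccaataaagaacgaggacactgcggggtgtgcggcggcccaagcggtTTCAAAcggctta
CENPE: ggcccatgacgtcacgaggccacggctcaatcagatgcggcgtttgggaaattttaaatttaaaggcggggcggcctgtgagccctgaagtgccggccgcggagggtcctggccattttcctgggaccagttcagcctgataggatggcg

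RKO carried part of the epithelial programme. KRT18, KRT8 and CDX2 were above 1 FPKM in all 8 libraries, with FPKM of 76.2 to 121, 6.58 to 19.0 and 7.48 to 11.6. EPCAM ranged from 0.0922 to 6.53, whereas CDH1, VIL1 and KRT19, other markers of colonic epithelium, were at or near 0, with none above 0.467. The markers PTPRC and CD3E of leukocytes and PECAM1 and CDH5 of endothelium were listed at 0 in every library, and the sum over 7 markers of other cell types did not exceed 0.0661. FPKM (fragments per kilobase of transcript, scaled to the mapped fragments of the library) is the deposited unit, and it allows levels of different genes to be compared. The estimated depth was 12400000 to 22800000 fragments per library. A total of 10865 genes averaged 1 FPKM or more across the 8 libraries and were called expressed. CENPE and HMMR, with means of 0.770 and 0.196, were below this limit and the other 8 genes passed it. Differences are given below as log2 ratios of FPKM plus 1, which makes those of low genes smaller, and half-widths are 95% counting half-widths of that ratio, which cover counting error only.

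The order of the levels differed between the days. On day 30, CKAP5 (FPKM of 14.0 to 19.2) and NUSAP1 (13.4 to 21.2) had the highest levels, with overlapping ranges. NUF2, NDC80, CENPF, SPC25 and CENPA followed, with medians of 11.1, 10.0, 7.45, 7.67 and 4.79, and the range of each overlapped that of its neighbours. DLGAP5 (1.23 to 4.08) and CENPE (0.855 to 2.29) overlapped with each other, and HMMR was below both at 0.0747 to 0.710. On day 4, CKAP5 (4.02 to 25.9), CENPA (4.81 to 10.4), NUSAP1 (3.61 to 12.9) and SPC25 (4.04 to 5.55) overlapped at the top. NDC80, DLGAP5, NUF2 and CENPF overlapped in the middle, from 0.415 to 3.03, and CENPE and HMMR were at 0 to 0.0968. SPC25 thus lay beside NUF2 and NDC80 on day 30 but above them in every library of day 4. The plot of FPKM by treatment shows NCD38 as the peak of 7 genes on day 30 and as the lowest point of 9 genes on day 4.

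**Figure D1:**
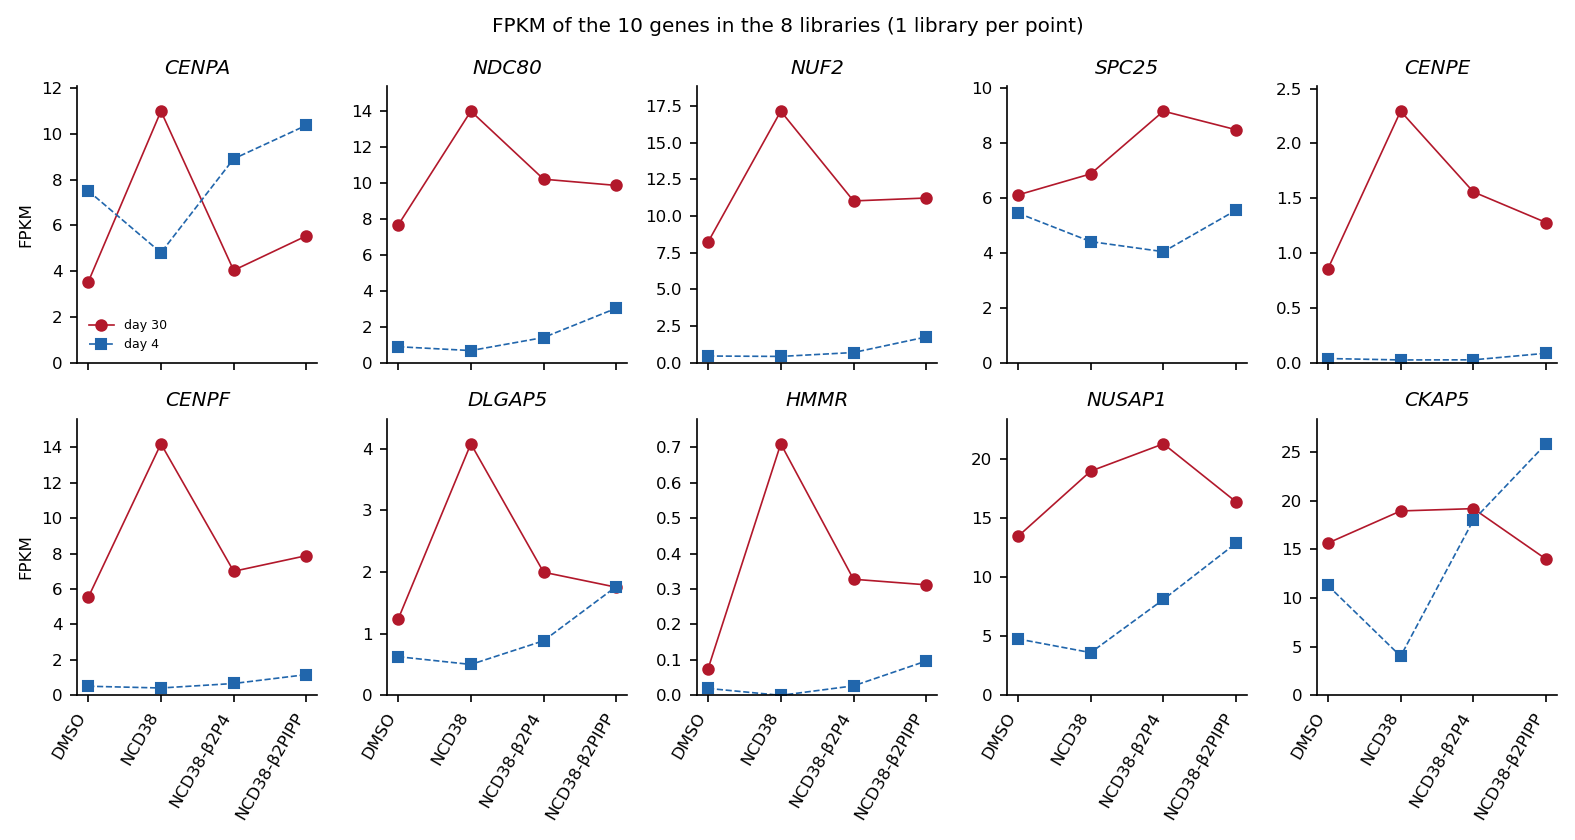
FPKM (vertical axis, linear from 0, a scale of its own in each panel) of the 10 genes by treatment (horizontal axis), with 1 library per point, on day 30 (red circles, solid lines) and day 4 (blue squares, dashed lines); the lines only guide the eye. On day 30, CENPA, NDC80, NUF2, CENPE, CENPF, DLGAP5 and HMMR were highest with NCD38, whereas SPC25, NUSAP1 and CKAP5 were highest with NCD38-β2P4.

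CENPA, on chromosome 2 of GRCh37 from 26987157 to 27023935 (plus strand), was among the genes that differed most with NCD38 on day 30. Its FPKM on day 30 was 3.52 (DMSO), 11.0 (NCD38), 4.04 (NCD38-β2P4) and 5.54 (NCD38-β2PIPP). The values of day 4 were 7.51, 4.81, 8.91 and 10.4 in the same order. The NCD38 library was thus the highest of its day on day 30 and the lowest on day 4. The log2 ratio against DMSO of the same day was 1.41 (half-width 0.29) on day 30 and -0.55 (half-width 0.31) on day 4. The DMSO library of day 4 was above that of day 30, so that against the DMSO of the other day the day 30 ratio was 0.49 and the day 4 ratio 0.36.

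The Ndc80 complex did not behave as a unit. NUF2, on chromosome 1 from 163236366 to 163325554 (plus strand), had an FPKM on day 30 of 8.22 (DMSO), 17.1 (NCD38), 11.0 (NCD38-β2P4) and 11.2 (NCD38-β2PIPP). The values of day 4 were 0.453, 0.426, 0.691 and 1.75, worth about 15.5, 11.0, 17.4 and 47.1 fragments. NDC80, on chromosome 18 from 2571556 to 2616634 (plus strand), followed it closely, with 7.66, 14.0, 10.2 and 9.87 on day 30 and 0.888, 0.674, 1.40 and 3.03 on day 4. Both genes were higher in every library of day 30 than in any of day 4, and both were highest with NCD38 on day 30 and with NCD38-β2PIPP on day 4. SPC25, on chromosome 2 from 169690642 to 169769881 (minus strand), had 6.10, 6.87, 9.15 and 8.47 on day 30 and 5.44, 4.40, 4.04 and 5.55 on day 4. Its log2 ratio for NCD38 on day 30 was 0.15 (half-width 0.28), within counting error, beside 0.98 (0.19) for NUF2 and 0.79 (0.19) for NDC80.

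SPC24, the remaining subunit and not one of the 10 genes, is given because the pattern of the complex turns on it. Its FPKM was 2.02, 2.56, 3.44 and 1.43 on day 30 and 25.9, 32.0, 22.7 and 23.8 on day 4, the opposite order of days. The proteins form a complex with 1 copy of each, but the FPKM of SPC25 was 0.401 to 0.830 times that of NUF2 on day 30 and 3.17 to 12.0 times on day 4. The ratio of NUF2 to NDC80 moved less, from 1.07 to 1.22 on day 30 and from 0.493 to 0.632 on day 4. The transcripts of NUF2, NDC80 and SPC25 have a GC content of 38.8%, 39.6% and 39.9%, and that of SPC24 has 53.3%. The plot of the subunits shows the change of order between the days.

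**Figure D2:**
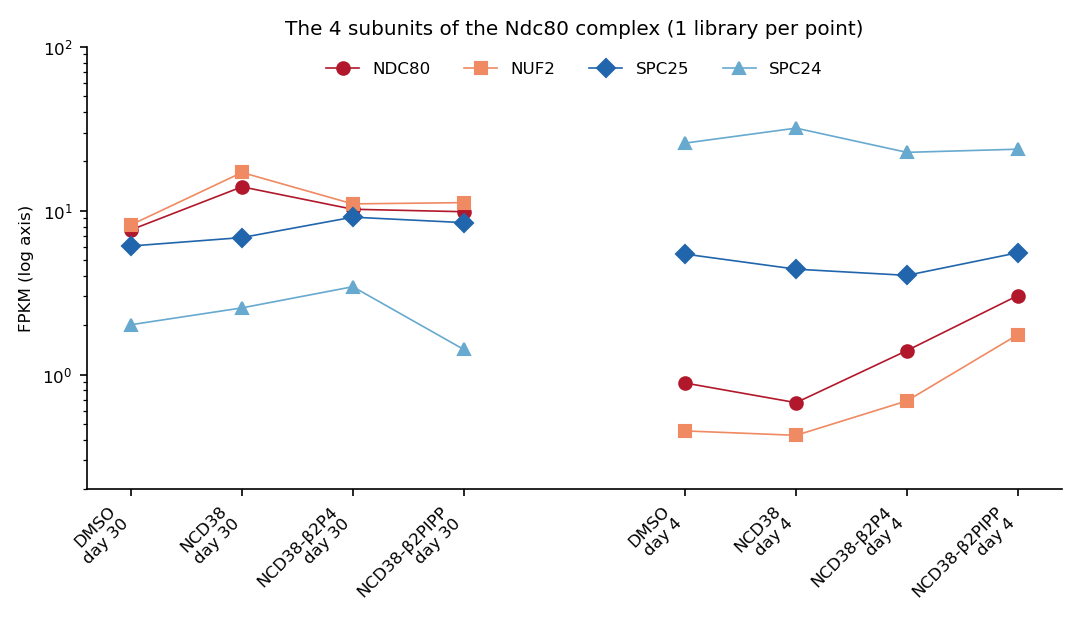
FPKM (vertical axis, logarithmic) of NDC80, NUF2, SPC25 and SPC24 in the 4 libraries of day 30 (left) and the 4 of day 4 (right), 1 library per point; lines join libraries of a day. SPC24 is the lowest subunit in all libraries of day 30, at most 3.44, and the highest in all of day 4, at least 22.7.

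In the fibrous corona, CENPF, on chromosome 1 from 214776528 to 214837917 (plus strand), had an FPKM on day 30 of 5.52 (DMSO), 14.2 (NCD38), 7.00 (NCD38-β2P4) and 7.89 (NCD38-β2PIPP). Its day 4 values were 0.514, 0.415, 0.669 and 1.17. Its transcript of 10290 nt is the longest of the 10, so its counting error was small, and the ratio for NCD38 on day 30 was 1.22 (half-width 0.092). CENPE, on chromosome 4 from 104026506 to 104119602 (minus strand), had 0.855, 2.29, 1.56 and 1.28 on day 30. Its values on day 4 were 0.0378, 0.0249, 0.0259 and 0.0858, worth about 5.62, 2.81, 2.83 and 10.0 fragments, so that no difference between treatments was detectable at this depth on that day. Both corona genes were lowest with DMSO and highest with NCD38 on day 30, and all libraries of day 30 were above all of day 4.

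Among the spindle genes, DLGAP5, on chromosome 14 from 55614830 to 55658326 (minus strand), had an FPKM on day 30 of 1.23 (DMSO), 4.08 (NCD38), 2.00 (NCD38-β2P4) and 1.75 (NCD38-β2PIPP). The day 4 values were 0.627, 0.501, 0.885 and 1.76, so that the highest library was NCD38 on day 30 and NCD38-β2PIPP on day 4. HMMR, on chromosome 5 from 162887209 to 162918947 (plus strand), had 0.0747, 0.710, 0.328 and 0.312 on day 30, worth about 4.08, 36.0, 12.2 and 21.4 fragments. The DMSO library therefore held few fragments of HMMR, and on day 4 the estimates were 1.03, 0, 1.03 and 4.00 fragments. A level below 3 fragments, an FPKM of 0.0572 to 0.0777 on day 4, could not be told from 0 for this gene.

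NUSAP1, on chromosome 15 from 41612992 to 41673248 (plus strand), had an FPKM on day 30 of 13.4 (DMSO), 18.9 (NCD38), 21.2 (NCD38-β2P4) and 16.3 (NCD38-β2PIPP). NUSAP1 had 4.77, 3.61, 8.10 and 12.9 on day 4. CKAP5, on chromosome 11 from 46764598 to 46867859 (minus strand), had 15.6, 19.0, 19.2 and 14.0 on day 30 and 11.3, 4.02, 18.0 and 25.9 on day 4. CKAP5 varied little on day 30 and by far more on day 4, and its libraries of day 4 lay on both sides of those of day 30. On day 4 the order of both, from low to high, was NCD38, DMSO, NCD38-β2P4, NCD38-β2PIPP, and that of DLGAP5, NDC80, NUF2, CENPA and CENPF was the same.

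Inhibitor treatment for 30 days was compared with DMSO of the same day, which is 1 library shared by the 3 comparisons, so they are not independent. With NCD38, 10 of 10 genes were higher, where 6408 of 10865 expressed genes were, and 9 were higher beyond counting error. Counting half-widths were worked out for the 10 genes only. At least 1.5-fold higher were 7 of 10, CENPA, CENPF, DLGAP5, NUF2, CENPE, NDC80 and HMMR, where 4.00% of expressed genes were. CENPE and HMMR are not among those expressed genes. CENPA, CENPF and DLGAP5 had the largest ratios on this scale, at 1.41, 1.22 and 1.18, with overlapping counting intervals. With 0.1 added to FPKM in place of 1, HMMR, DLGAP5 and CENPA led, at 2.21, 1.65 and 1.61. The median log2 ratio of the 10 genes was 0.81, beside 0.059 for all expressed genes, and 0.67 after the trend with GC content was subtracted. When DMSO of day 4 served as comparator the median was 1.65, but for CENPA the ratio was then 0.49 rather than 1.41.

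With NCD38-β2P4 on day 30, 10 of 10 genes were higher, where 6744 of 10865 expressed genes were. Of the 10, 9 were higher beyond counting error, but the differences were smaller. NUSAP1, at a log2 ratio of 0.62 (half-width 0.16), was the 1 gene at least 1.5-fold higher, against 1.43% of expressed genes. The median was 0.38, beside 0.062 for all expressed genes. The ratios moved with GC content (Spearman correlation across 10081 genes of -0.52, beside -0.18 for NCD38 on day 30), and with that trend subtracted the median was 0.16 and the count was 0. With NCD38-β2PIPP on day 30, 9 of 10 genes were higher, where 5020 of 10865 expressed genes were. CKAP5 was lower, at -0.15 (half-width 0.081). None was 1.5-fold higher, against 1.72% of expressed genes. The median was 0.31, beside -0.014, and this library showed almost no trend with GC content (Spearman correlation across 10081 genes of -0.027), so that subtracting it left 0.31. CENPA had a ratio of 0.53 (half-width 0.30). The upper row of the plot of ratios shows the wide spread of the genes with NCD38 on day 30 and the narrow one with the conjugates. On day 4 the spread with NCD38-β2PIPP was wide as well, from 0.024 to 1.27.

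**Figure D3:**
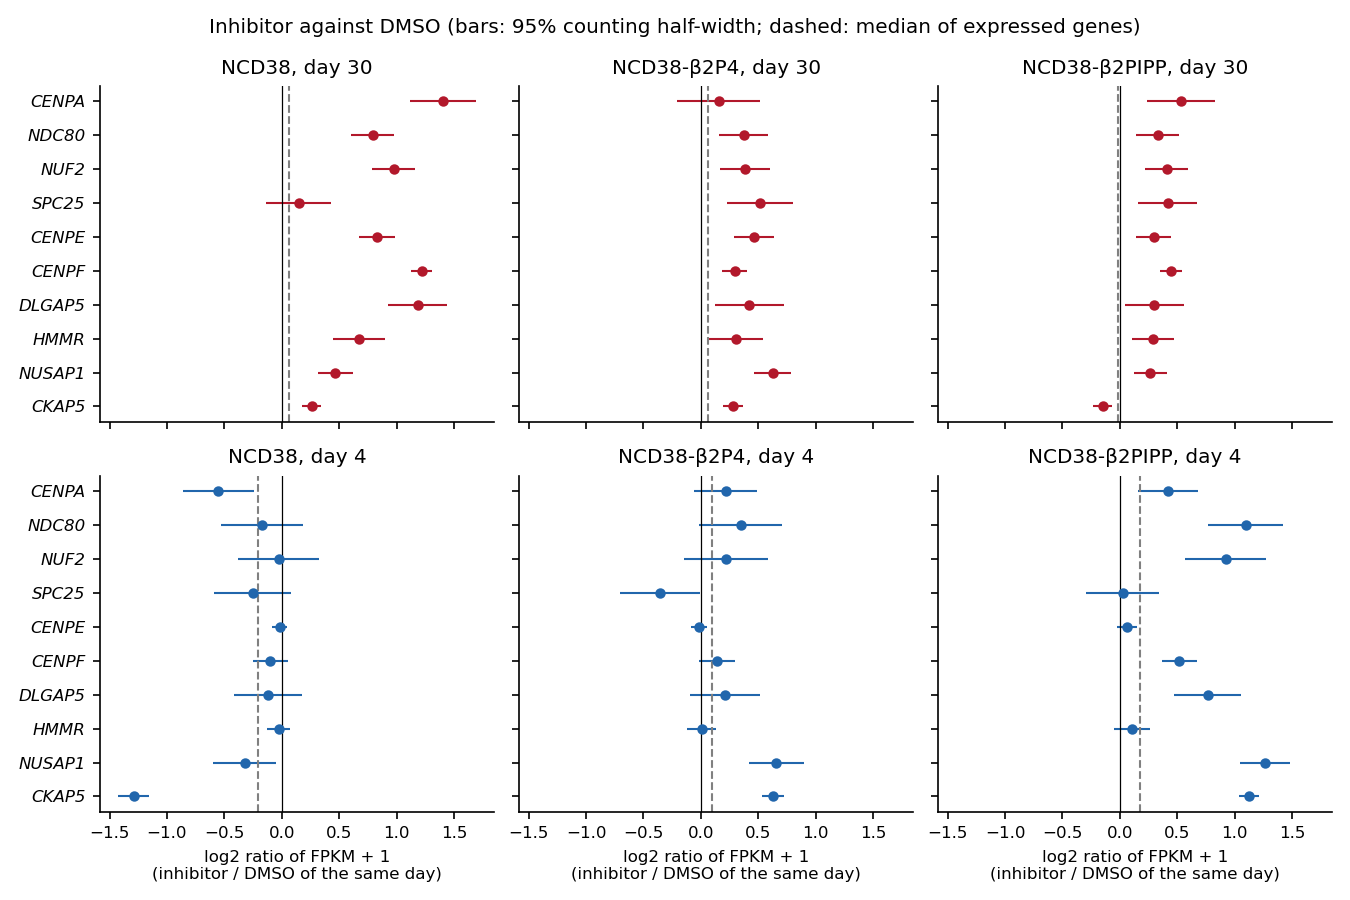
Log2 ratio of FPKM plus 1 (horizontal axis) of each gene (vertical axis) with an inhibitor against DMSO of the same day, day 30 above and day 4 below; points are single pairs of libraries, bars 95% counting half-widths, dashed lines the median over 10865 expressed genes. Medians of the 10 genes, from left to right, are 0.81, 0.38 and 0.31 in the upper row and -0.15, 0.22 and 0.64 in the lower.

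After 4 days the picture was another one. With NCD38, 0 of 10 genes were higher and 10 were lower, where 7311 of 10865 expressed genes were lower. CENPA, NUSAP1 and CKAP5 were lower beyond counting error, with ratios of -0.55, -0.32 and -1.29. CKAP5 was the 1 gene at least 1.5-fold lower, against 22.5% of expressed genes, and 0 were as much higher, against 2.10%. The median of the 10 genes was -0.15, above the median of -0.209 for all expressed genes. After each library was centred 6 of the 10 were higher, DLGAP5, NDC80, NUF2, CENPE, CENPF and HMMR. All of these had a lower FPKM with NCD38 than with DMSO. They were low on day 4, and the 1 added to FPKM draws such ratios towards 0. With 0.1 or 0.01 added, the median of the 10 genes was -0.29 or -0.40. With NCD38-β2P4, 8 of 10 were higher, where 7066 of 10865 expressed genes were. Of the 10, 2 (NUSAP1 at 0.66 and CKAP5 at 0.63) were at least 1.5-fold higher, against 7.87% of expressed genes. SPC25 was lower, at -0.35 (half-width 0.35). With NCD38-β2PIPP, 10 of 10 were higher, where 6915 of 10865 expressed genes were, with a median of 0.64 beside 0.175. At least 1.5-fold higher were 5 (NUSAP1, CKAP5, NDC80, NUF2 and DLGAP5), against 27.1% of expressed genes, and NUSAP1 had a ratio of 1.27 (half-width 0.22).

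All 3 ratios on day 4 moved with GC content across all genes. Across 10081 expressed genes the Spearman correlation was 0.59 (NCD38), -0.53 (NCD38-β2P4) and -0.69 (NCD38-β2PIPP), and genes are not independent replicates. In the 20% of genes lowest in GC content, the middle ratio was -0.35, 0.34 and 0.78 in the same order. The 10 genes have transcripts of 35.1% to 47.2% GC, and 7 of the 10 are in that group, whose upper edge is 41.4%. After the trend was subtracted, the 10 genes had medians on day 4 of 0.21 (NCD38), -0.13 (NCD38-β2P4) and 0.014 (NCD38-β2PIPP), and 0 genes were 1.5-fold higher with either conjugate. CKAP5 and NUSAP1 had ratios of 0.58 and 0.49 with NCD38-β2PIPP, and CKAP5 a ratio of -0.70 with NCD38. For CENPE and HMMR, at about 2.81 and 0 fragments with NCD38 on day 4, the subtraction moved the ratio from -0.018 to 0.21 and from -0.028 to 0.20. The part of GC content in these results was not tested further.

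Day 30 and day 4 were compared over 4 treatment-matched pairs of libraries with limma, in which each treatment is a block. The day cannot be told apart from anything else that differed between the collections. To avoid a filter on the mean level, which a high day alone can pass, the fit was made over all 17976 genes above 0 in at least 1 library. A gene above 0 on only 1 of the days is still kept there, but each of the 10 genes was above 0 on both. There, 5 of the 10 genes were higher on day 30 and 0 were lower, where 23.7% of all genes were higher and 19.8% lower. NUF2 was higher by 2.83 on the log2 scale (SE 0.29, limma adjusted p = 0.00238), CENPF by 2.46 (SE 0.30, limma adjusted p = 0.00353) and NDC80 by 2.25 (SE 0.31, limma adjusted p = 0.00522). CENPE was higher by 1.23 (SE 0.15, limma adjusted p = 0.00380) and NUSAP1 by 1.26 (SE 0.31, limma adjusted p = 0.0279), and all 5 were higher in 4 of 4 pairs. HMMR and SPC25 did not pass, at 0.37 and 0.56 (limma adjusted p = 0.0615 and 0.0683). All libraries of day 30 were above all of day 4 for 6 of the 10 genes, the 5 called genes and SPC25, against 29.5% of expressed genes, and the reverse held for 0 of 10, against 33.1%. The sets are unlike, since CENPE is not among the expressed genes and NUF2 and CENPF are there through day 30.

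The same fit was also made among the 10865 expressed genes, where 8 of the 10 were tested, and 30.2% of genes were higher and 31.7% lower on day 30. NUF2, CENPF and DLGAP5 averaged less than 1 FPKM on day 4 and so passed this filter through day 30, which makes the fit over all genes the one to read for them. NDC80 kept its call in every alternative in which it was tested. NUF2 and CENPF did too, but apart from the fit over all genes these were fits over expressed genes. Their calls there are descriptions and add no support. NUF2, CENPF and NDC80 were not tested where 1 FPKM or more was required in all 8 libraries. NUSAP1 was higher among expressed genes (limma adjusted p = 0.0138), but without the DMSO pair the limma adjusted p was 0.0662 and without the NCD38-β2P4 pair 0.0619. SPC25 passed among expressed genes (limma adjusted p = 0.0457) but not over all genes, and it lost its call whichever pair was left out, with a limma adjusted p from 0.0686 to 0.224.

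DLGAP5, CKAP5 and CENPA did not pass the test. DLGAP5 differed by 0.72 (SE 0.32, limma adjusted p = 0.137 over all genes and 0.0893 among expressed genes), from -0.0061 in the NCD38-β2PIPP pair to 1.76 in the NCD38 pair. Without the NCD38-β2PIPP pair it differed by 0.96, in a fit over the expressed genes, which it entered through day 30, so no p is given. CENPA was lower on day 30 in 3 of 4 pairs, by 0.80 to 0.98, but higher by 1.05 in the NCD38 pair. Over all 4 pairs it differed by -0.41 (SE 0.38, limma adjusted p = 0.387), and without the NCD38 pair by -0.90 (limma adjusted p = 0.00408). CKAP5 was higher by 1.99 in the NCD38 pair and lower in the NCD38-β2PIPP pair, at -0.84.

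The difference between the days also moved with GC content, from a median of 1.55 in the lowest of 20 GC bins of expressed genes to -0.72 in the highest. This trend was subtracted only in a fit over the expressed genes, which NUF2, CENPF and DLGAP5 entered through day 30, so no p is given for them. NDC80 was then higher on day 30 by 1.05 (limma adjusted p = 0.000978) and NUSAP1 by 0.33 (limma adjusted p = 0.0457). NUF2 and CENPF were higher by 1.41 and 1.36. DLGAP5, with 37.8% GC, turned to the other side, at -0.70, and SPC25 to -0.65 (limma adjusted p = 0.0727). SPC24 was lower on day 30, at -3.04 (SE 0.20, limma adjusted p = 0.000440), and at -2.44 after the subtraction (limma adjusted p = 0.000245). The plot of the difference against GC content shows NUF2, CENPF and NDC80 above, and DLGAP5, SPC25 and SPC24 below, genes of like GC content.

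**Figure D4:**
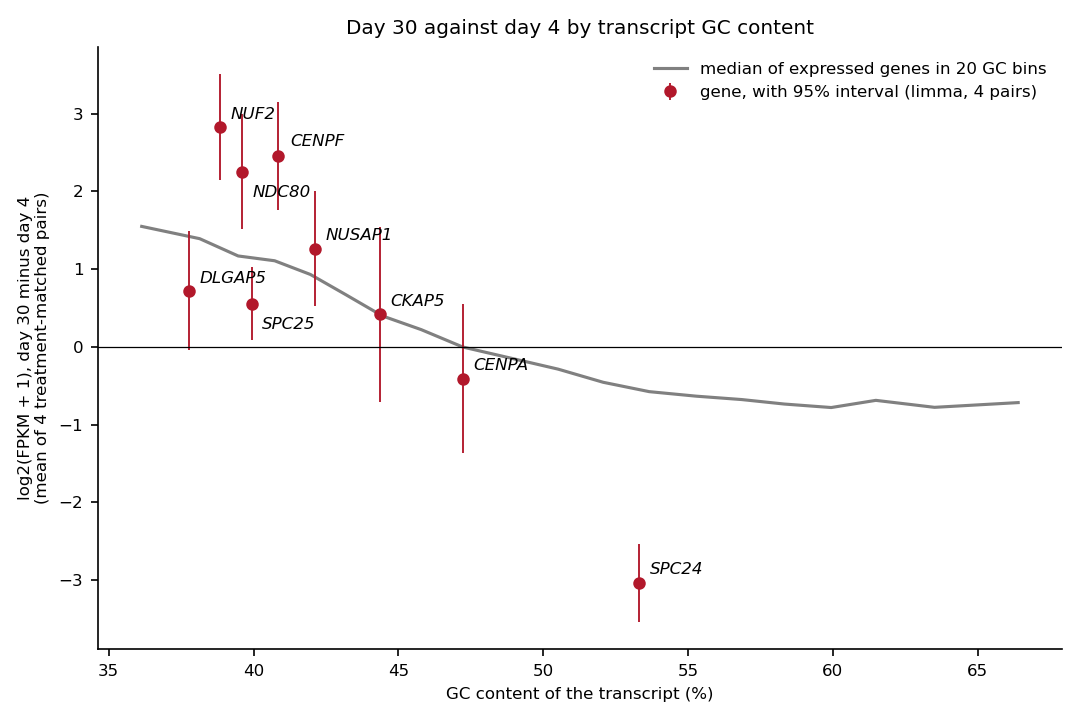
Log2(FPKM + 1) on day 30 minus day 4, mean of 4 treatment-matched pairs (vertical axis), against the GC content of the transcript in percent (horizontal axis), for the 8 expressed genes of the set and SPC24; bars are 95% intervals of limma over expressed genes and the grey line is the median of expressed genes in 20 bins of GC content. NUF2 at 2.83 and SPC24 at -3.04 lie farthest from the line.

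The inhibitors were compared with DMSO and with one another over both days, in the same limma fit with the day as a block, at 2 µM as labelled. The disagreement between the days is then the error, so that an effect on 1 day alone cannot pass. For NCD38 against DMSO, 0 of 8 genes tested were called, where 0.00920% of expressed genes were higher and 0.0276% lower. For NCD38-β2P4 against DMSO, 0 of 8 were called, where 0.00920% were higher and 0.00920% lower. For NCD38-β2PIPP against DMSO, 0 of 8 were called, where 0.00% were higher and 0.0184% lower. No gene of the 8 reached an unadjusted limma p under 0.05 in these contrasts. With the GC trend subtracted, an alternative chosen after seeing the data, 4 did for NCD38 (NUF2, CENPF, DLGAP5 and NDC80) and 1 for NCD38-β2PIPP. Of all 10081 genes in that fit, 190 and 99 did, in either direction. With each library centred 3 did for NCD38, where 130 of 10865 expressed genes did. Without the NCD38 libraries 4 did for NCD38-β2PIPP, where 396 of 10865 did. All of these genes of the set were higher than DMSO and none was called after adjustment. DLGAP5 differed from DMSO by 0.53 (95% interval -0.55 to 1.62) with NCD38, by 0.32 (-0.76 to 1.40) with NCD38-β2P4 and by 0.53 (-0.55 to 1.62) with NCD38-β2PIPP. For NCD38 the ratios of the separate days behind this interval were 1.18 and -0.12.

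The 3 pairs of inhibitors were adjusted together over all genes. For NCD38-β2P4 against NCD38, 0 of 8 genes were called, where 0.00920% of expressed genes were higher and 0.00% lower. For NCD38-β2PIPP against NCD38, 0 of 8 were called, where 0.00920% were higher and 0.00920% lower. For NCD38-β2PIPP against NCD38-β2P4, the pair that differs by an imidazole in place of a pyrrole, 0 of 8 were called, where 0.00920% were higher and 0.0184% lower. CKAP5 had the largest difference, with NCD38-β2P4 above NCD38 by 0.97 (95% interval -0.62 to 2.56) and NCD38-β2PIPP above NCD38 by 1.003 (-0.59 to 2.59). Between the conjugates, CKAP5 differed by 0.035 (-1.56 to 1.63), NUF2 by 0.36 (-0.60 to 1.32) and DLGAP5 by 0.22 (-0.87 to 1.30). These intervals include differences of over 2-fold in most cases, so that like action was not shown either.

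Other genes of the same structures are given as counts, in lists that were chosen with results of these data known. With NCD38 on day 30, at least 1.5-fold higher were 4 of 19 expressed genes of the inner kinetochore, led by the CENPA chaperone HJURP at 0.71, and 5 of 20 of the outer kinetochore and checkpoint, led by the checkpoint kinase BUB1 at 1.21. Among other spindle genes, 7 of 21 were, led by the microtubule-depolymerising kinesin KIF2C at 1.17. The share of all expressed genes was 4.00%. Of 34 S-phase genes 0 were, with a median of -0.098, and 14 were higher. The medians of the 3 mitotic lists, 0.18, 0.40 and 0.29, were below the 0.81 of the 10 genes. CENPM was the lowest of the inner kinetochore, at -0.39, PMF1 of the outer, at -0.20, and HAUS5 of the spindle, at -0.28.

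With the conjugates on day 30, 1 of 19 genes of the inner kinetochore (NCD38-β2P4) and 0 of 19 (NCD38-β2PIPP) were at least 1.5-fold higher, and none of the outer kinetochore or spindle lists was with either. On day 4 with NCD38, 5 of 19, 7 of 20 and 5 of 21 genes of the same lists were at least 1.5-fold lower, led by HJURP at -1.13, DSN1 at -0.98 and MAPRE1 at -1.40, and 12 of 34 S-phase genes were, where 22.5% of all expressed genes were. On day 4 with NCD38-β2PIPP, 4 of 19, 10 of 20 and 7 of 21 were at least 1.5-fold higher, led by MLF1IP (CENPU) at 0.94, MAD2L1 at 1.33 and HAUS1 at 1.77, where 27.1% of all expressed genes were. With NCD38-β2PIPP the medians of these lists went from 0.28, 0.58 and 0.49 to -0.25, -0.060 and 0.14 once the GC trend was subtracted. With NCD38 on day 4 they went from -0.31, -0.50 and -0.31 to 0.084, -0.014 and -0.0070. Between the days, limma called 11 of 19 genes of the inner kinetochore higher on day 30 and 1 lower, 8 of 20 of the outer kinetochore higher and 4 lower, and 6 of 21 of the spindle higher and 8 lower, beside 30.2% and 31.7% of all expressed genes. Several of these shares lie near those of all genes. SPC24 was the lowest of the outer list, and KIF2C the lowest of the spindle list, at -1.70.

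The genes whose pattern was most like that of DLGAP5 over the 8 libraries, after the mean of each day was subtracted, were SMC4 (Pearson correlation of 0.97), MGC12916 (0.97), IL6ST (0.96), ZSWIM1 (0.95) and ALCAM (0.95). SMC4 is a condensin subunit and IL6ST the gp130 cytokine receptor. Among the 10 genes, the correlation with DLGAP5 was 0.97 for NUF2, 0.97 for CENPF, 0.92 for NDC80, 0.90 for CENPA, 0.88 for HMMR, 0.83 for CENPE, 0.73 for NUSAP1, 0.61 for CKAP5 and 0.18 for SPC25. SPC25 was thus the least like DLGAP5. The genes most like the mean of the 10 were TTC14, CEP55, CENPW, ANKRD13C and ZSCAN22, at 0.97 to 0.98, of which CEP55 acts in cytokinesis and CENPW in the inner kinetochore. The libraries of a day share their collection, the points share base composition effects, and with 0.1 added to FPKM in place of 1 only SMC4 and MGC12916 stayed among the 5 most like DLGAP5 and only 1, CENPW, among the 5 most like the mean, so these are descriptions.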

How the data were processed

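RNA-seq libraries of RKO cells were analysed, 1 for each of 4 treatments on each of 2 days. The paper states that the authors extracted RNA, made stranded mRNA libraries, aligned reads with TopHat and deposited FPKM values from Cufflinks, already divided by transcript length and mapped fragments. The submitters' processing notes name HISAT2 2.2.1.0 and Cufflinks and hg19, so which aligner made the table is not settled here. The table holds no counts. A further 30 ChIP-seq samples of the series were not used here.

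The 90 entries with a repeated name were left out, leaving 25504 genes. Values were compared as log2(FPKM + 1). Fragments per library were estimated from low values, which cluster at multiples of what 1 fragment is worth, with transcript lengths of GENCODE on GRCh37 (10081 of 10865 expressed genes matched, 92.8%), and gave the counting half-widths. Single pairs of libraries got no test. limma 3.58.1 (R 4.3.3, trend, treatment and day as terms, 3 residual degrees of freedom, prior 2.51 among expressed genes) was fitted over all expressed genes with Benjamini-Hochberg adjustment at 0.05. For the days it was also fitted over the 17976 genes above 0 in at least 1 library. Nothing says whether the libraries came from separate cultures. Python 3.11.15 did the rest, and the methods were tested on simulated data. The trend with GC content was the median in 20 bins.

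The genes and lists were chosen with earlier results of these data known. Named besides the 10 genes were the 5 most correlated with DLGAP5 and with the mean of the 10, and the ends of each list. A planned permutation test of the mean of the 10 genes is not given. In all, 33 alternatives, counted per kind of result, were tried. A further 1, the GC subtraction before the limma fit, was chosen after seeing the data.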

Additional observations from a re-analysis of the deposited data

Results flagged for a closer look

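In 5 cases a gene was above DMSO beyond counting error on one day and below it on the other, with 1 library per condition, and the difference between the days was not tested. CENPA with NCD38 had a log2 ratio of 1.41 on day 30 and -0.55 on day 4. For NUSAP1 with NCD38 the ratios were 0.47 and -0.32, and for CKAP5 with NCD38 they were 0.26 and -1.29. SPC25 with NCD38-β2P4 had 0.52 on day 30 and -0.35 on day 4. CKAP5 with NCD38-β2PIPP went the other way, from -0.15 on day 30 to 1.13 on day 4. After the GC trend was subtracted, the day 4 ratio was -0.044 for CENPA, 0.22 for NUSAP1 and -0.70 for CKAP5 with NCD38, so that NUSAP1 was then higher on both days. Of 20 groups of 4 libraries, each 1 gene on 1 day, 0 held a library that stood apart by Dixon's criterion. The libraries of a group are different treatments, and the genes share them. The chance rate of about 1 of 20 holds for independent groups of replicates, so it cannot be used here.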

How the results depend on the processing

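No paired analysis by replicate number was possible because the labels give no replicate numbers and each condition has 1 library. The days were compared in treatment-matched pairs throughout. Of 240 values of single genes under alternatives, 129 moved by less than their counting half-width. In all, 44 changed sign, and 11 of these had been beyond counting error before. The cause was not tested in any case. With 0.1 added in place of 1, the median of the 10 genes was 1.19 with NCD38 on day 30 and, with NCD38-β2PIPP on day 4, 1.12, and on day 30 the number at least 1.5-fold higher was 4 (NCD38-β2P4) and 2 (NCD38-β2PIPP). With 0.01 the medians were 1.21 and 1.31, the counts were 4 and 2 on day 30, and on day 4 they were 4 and 8. With libraries centred, 0 genes were 1.5-fold higher with NCD38-β2P4 on either day. The share of all expressed genes past 1.5-fold was worked out only with 1 added and DMSO of the same day. The counts under alternatives, here and below, therefore describe the 10 genes and cannot be set against all genes.

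Taking DMSO of the other day changed most. On day 30 it gave medians of 1.65 (NCD38), 1.09 (NCD38-β2P4) and 0.95 (NCD38-β2PIPP), and counts of 8 and 6 with the conjugates. On day 4 it gave -1.25, -0.58 and -0.087, and counts of 1 and 2 with the conjugates. CENPA then turned to -0.38 with NCD38-β2PIPP on day 30 and 0.36 with NCD38 on day 4, CKAP5 to 0.29 with NCD38-β2PIPP on day 30, and NUSAP1 to -0.66 with NCD38-β2P4 on day 4. NDC80, NUF2, CENPF and NUSAP1 turned to -1.10, -1.74, -1.59 and -0.058 with NCD38-β2PIPP on day 4. With the GC trend subtracted, medians were 0.16 with NCD38-β2P4 on day 30 and 0.21, -0.13 and 0.014 with the 3 inhibitors on day 4, counts with the conjugates were 0, CENPF and DLGAP5 with NCD38-β2PIPP on day 4 were -0.27 and -0.064, and NUSAP1 with NCD38 on day 4 was 0.22.

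Between the days, among expressed genes, 5 of the 8 genes tested were higher and 0 lower, where 30.2% of all were higher and 31.7% lower. NUF2, CENPF and DLGAP5 passed that filter through day 30, so their calls in these alternatives are descriptions. Requiring 1 FPKM or more in each of the 8 libraries, 4 genes were tested, since the others were below it on day 4. Of these 4, 2 were called higher, where 1632 of 7915 genes were higher and 3200 lower. Leaving out 1 pair of libraries gave 3 to 5 genes higher and 0 to 1 lower, the latter being CENPA without the NCD38 pair. Of 10865 expressed genes, 2189 to 3581 were then higher and 2378 to 3963 lower. With the GC trend subtracted before the fit, an alternative chosen after seeing the data, 4 were higher and 1, DLGAP5, was lower. Of 10081 genes in that fit, 2854 were higher and 2807 lower. With libraries centred, SPC25 lost its call (limma adjusted p = 0.116). DLGAP5, for which no p is given, then differed by 0.61. Depth limits CENPE and HMMR on day 4, where estimates ran from 0 to 10.0 fragments.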
